A study of Mus musculus with 12 samples.

Results

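The wild-type liver transcriptome at weaning is described here from 6 livers, the samples labelled WT among the 12 livers of the series. The other 6 livers came from mice that lack Lcorl, a gene for a nuclear corepressor-like protein, and were not analysed here. Lcorl itself measured 234 to 308 normalized counts in the wild-type livers. All 6 wild-type mice were females of 3 weeks, killed at the time of weaning around 10 am. Each library had its own animal number. Strain, litter and diet are stated in none of the sources. WT 1 to WT 6 are names in accession order and carry no ranking.

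The value of a gene is its normalized count, the reads assigned to the gene divided by 1 scaling factor per library. The whole reads behind these values could be recovered, and depth was 21769795 reads in WT 4, the shallowest, and up to 28655120 in WT 5. The table lists 17714 genes, of which 15912 had a mean of at least 1 and 10401 a mean of at least 100. All 10 hepatocyte markers were measured, and together they held 14.1 ± 0.510% of counts (SD, n = 6). Of 19 pancreas markers 6 were measured, and together they held from 0.00125% of counts in WT 1 to 0.00209% in WT 4. Cela1 had a mean of at least 100, while Reg1 and Ctrb1 were at 0 in every liver. There 3 reads would be at most 1.38e-05% of counts. Spread is given throughout as the SD of log2(normalized count + 1) over the 6 livers, so that an SD of 1 is a spread of 1 log2 unit. Livers WT 4 and WT 6 stand apart from the rest in many genes. Where leaving out 1 liver moved the SD of a gene by over 1.5 times, the value without that liver is given too. This was checked for genes among the 20 most abundant, 20 most variable or 20 least variable, and not for other single genes named. With no second group no groups were compared, and every value below is a description of these livers.

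As background, the hepatocyte makes most of the proteins of blood plasma and carries out urea synthesis, glucose output, fat synthesis and the clearance of foreign compounds. Before birth the liver is also a blood-forming organ and expresses genes such as Afp, H19 and Igf2 that are shut down in the weeks after birth. Around weaning the diet moves from fat-rich milk to carbohydrate-rich chow, and growth hormone from the pituitary, acting through the receptor Ghr, the kinase Jak2 and the factor Stat5b, begins to drive Igf1 and the sex-dependent genes of the adult liver.

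Among the genes listed, normalized counts were dominated by a small set of genes for secreted proteins. Shares are of the counts of these listed genes. No gene of the mitochondrial genome was among the 20 most abundant. Alb, which encodes serum albumin (chromosome 5, 90460897 to 90476602, plus strand, GRCm38), alone took 10.5 ± 0.515% of counts (SD, n = 6). Its share was 9.95% in the lowest liver, WT 4, and 11.1% in the highest, WT 1. An exact binomial interval at 95% confidence around the Alb share of any liver was at most ± 0.0129 percentage points, which covers counting error only, so the difference between livers is larger than counting error. The 10 most abundant genes held 21.3% of counts, the 100 most abundant 42.96% and the 1000 most abundant 71.5%. Of the 17714 genes, 17 held 25% of counts, 182 held 50% and 3930 held 90%. The livers were alike in this, since the number of each liver's own genes that held 50% of its counts ran from 169 in WT 3 to 193 in WT 2. Protein-coding genes held 98.97% of counts.

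Of the 20 most abundant genes, 15 encode secreted proteins of the lists used here and 5 encode metabolic enzymes. After Alb came the iron carrier transferrin, Trf, with 2.32 ± 0.269% of counts, and the mineral-binding fetuin-A, Ahsg, with 2.13 ± 0.166%. The lipoprotein genes Apoe and Apoa1 held 1.15 ± 0.0527% and 0.939 ± 0.123%, and Apoa2 was the last of the 20 with 0.512 ± 0.0365%. C3, the central complement component, held 1.12 ± 0.117%, and Sepp1, which encodes the selenium carrier selenoprotein P, 0.863 ± 0.0859%. The fibrinogen chains Fga, Fgb and Fgg, neighbours on chromosome 3, held 0.791, 0.746 and 0.536%. The other secreted members were the vitamin D carrier Gc, the serpin Serpina3k, the thyroxine carrier Ttr and the haem scavenger Hpx, at 0.578 to 0.633% each. Among the enzymes were Mat1a (S-adenosylmethionine synthesis, 0.669%), Cps1 (entry step of the urea cycle, 0.554%), Cyp2e1 (a cytochrome P450 of central hepatocytes, 0.553%) and Ces1c (a carboxylesterase, 0.551%).

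**Figure D1:**
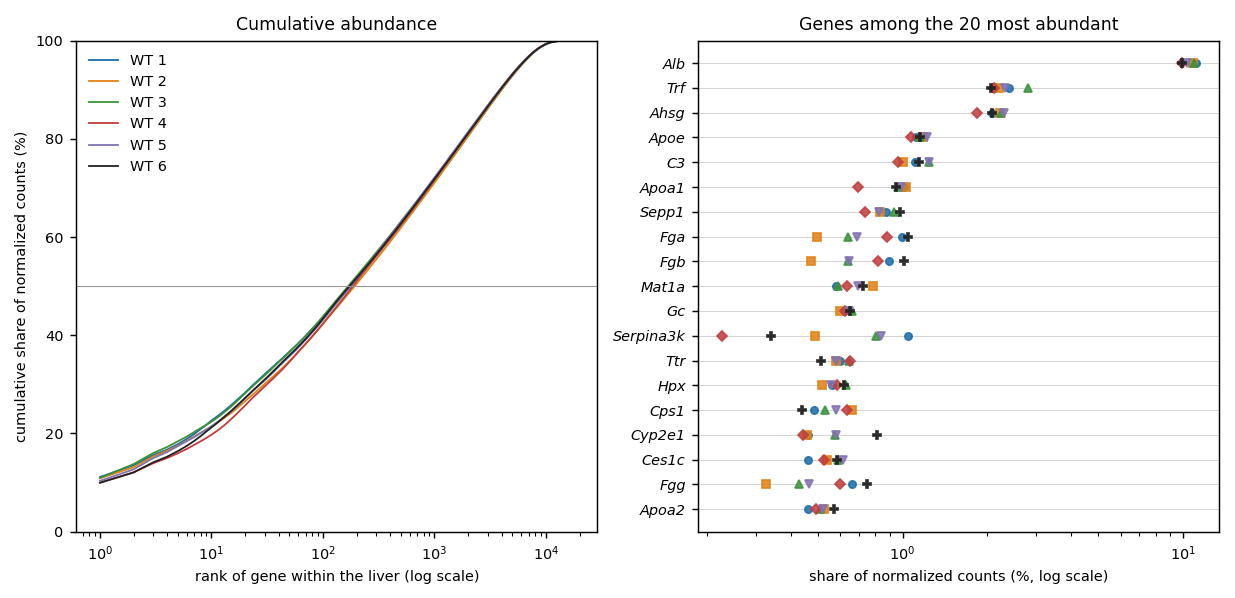
Left, the cumulative share of normalized counts (%) against the rank of each gene in its own liver (log scale), 1 line per liver; right, the share (%, log scale) of genes among the 20 most abundant, 1 point per liver. The 6 lines nearly coincide and cross 50% at 169 to 193 genes, while Serpina3k and the fibrinogen chains Fga, Fgb and Fgg spread most among the genes drawn, which are not all of the 20.

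High abundance did not mean an equal level in every liver. Alb had an SD of 0.061, Gc of 0.073 and Apoe of 0.074, below the median SD of 0.156 over all 10401 genes whose mean reached 100. Serpina3k, by contrast, had an SD of 0.855. Its normalized counts were 281292, 233364 and 222280 in WT 1, WT 5 and WT 3, 129888 and 92247 in WT 2 and WT 6, and 62960 in WT 4, a 4.47-fold range. Fga ran from 132291 in WT 2 to 285674 in WT 6 with a median of 218409, and Fgb and Fgg had the same lowest and highest liver. Apoa1 was at 193085 in WT 4 and between 258879 and 276844 in the others, and its SD of 0.199 was 0.039 without WT 4. Single livers also set the spread of Trf, highest in WT 3 with 776334 (SD 0.167, and 0.0896 without it), and of Cyp2e1, highest in WT 6 with 221171 (0.341, and 0.209 without it). The SDs of Ces1c and Apoa2, 0.166 and 0.110, were 0.106 and 0.0713 without WT 1, and that of Apoe was 0.0467 without WT 5.

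The Alb promoter is shown because this gene leads the ranking. The window is 300 bases, most of them before and the last ones after the first start that RefSeq lists (chr5:90460620-90460919, plus strand, GRCm38.p6), and its capitals mark TTATGTAA and CCAAT on either strand, which do not overlap here.
Alb: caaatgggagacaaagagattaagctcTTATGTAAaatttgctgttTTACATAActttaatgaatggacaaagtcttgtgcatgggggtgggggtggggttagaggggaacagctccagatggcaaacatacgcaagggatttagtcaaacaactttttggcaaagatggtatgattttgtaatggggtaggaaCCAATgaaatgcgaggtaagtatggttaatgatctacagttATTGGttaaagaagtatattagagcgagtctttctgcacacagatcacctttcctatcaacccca
TTATGTAA stood in this window at 2 places and CCAAT at 2. Among all 27025 RefSeq windows of this length, 0.955% hold TTATGTAA and 37.9% hold CCAAT. For the list of plasma carriers, 24 of 28 genes had a window, and TATAAA on either strand was in 11 of them (45.8%), against 14.2% of all windows. The hexamer was absent from the Alb window. A match in these letters is a description and shows no binding.

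The 148 genes on the secreted lists held 34.3 ± 1.19% of counts, from 32.7% in WT 4 to 35.4% in WT 3. Plasma carriers and binding proteins made up most of this with 20.1 ± 0.780% (28 genes), followed by apolipoproteins with 4.02 ± 0.178% (14 genes), coagulation and fibrinolysis with 3.98 ± 0.618% (23 genes), acute phase reactants with 3.28 ± 0.800% (20 genes, the fibrinogens among them counted here again), protease inhibitors with 2.78 ± 0.325% (14 genes) and complement with 2.13 ± 0.132% (20 genes). Behind C3, the complement list was led by Cfb (factor B, 52989 normalized counts) and C4b (50424). The coagulation list, after the fibrinogens, was led by Plg, which encodes plasminogen (102877). Hormones and growth factor binding proteins held 0.617 ± 0.0491% (24 genes), led by Igfbp4 (48144 ± 5059), the angiotensin precursor Agt and Igf1 (17363 ± 7540). The major urinary proteins, pheromone carriers of the adult mouse, were low at this age, with 14 of 22 symbols measured and 0.0158% of counts. Mup3 was the main member at 3952 ± 1490. These genes are near-identical copies, so reads between them could not be assigned with certainty.

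The 351 genes on the metabolic lists held 16.5 ± 0.853% of counts, from 15.6% in WT 1 to 17.7% in WT 4. Amino acid catabolism was the largest of these lists with 2.61 ± 0.303%, led by Mat1a, Tat (tyrosine breakdown) and Hpd. The 40 measured cytochrome P450 genes held 1.85 ± 0.235%, led by Cyp2e1, Cyp3a11 (39387 ± 7794) and Cyp2c29 (34361 ± 6011). Glucose handling held 1.55 ± 0.156%, and included Pck1, the controlled step of glucose synthesis, at 76702 ± 32648. The urea cycle held 1.33 ± 0.155%. Its members Arg1 (47978 ± 3425) and Otc (16745 ± 782) were steady, with SDs of 0.101 and 0.067, while the transporter Slc25a15 had 0.364. Ass1 lay at 56718 ± 10123, but its counts differed by at most 0.0501% in any liver from those of Gm5424, a pseudogene of it on chromosome 10, so the level of Ass1 is uncertain. Fatty acid synthesis held 1.15 ± 0.401%, fatty acid oxidation and ketogenesis 1.20 ± 0.113%, conjugation enzymes 1.36 ± 0.117%, cholesterol synthesis and uptake 0.736 ± 0.123% and 30 nuclear-encoded respiratory chain genes 0.775 ± 0.0215%.

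Counts favour long transcripts, so levels between genes were compared per kilobase of merged exons, scaled to the same total in each library. On this scale Alb led with 119972 ± 5848, and Ahsg (25910 ± 1951), Apoa2 (25459 ± 1768), Apoa1 (20277 ± 2598) and Trf (18653 ± 2135) followed. Apoa2 moved from place 20 to place 3 and Fabp1, the short fatty acid binding protein, came to place 8 with 11188. Cps1, a long transcript, moved from place 15 to place 44. Of the 20 most abundant genes by count, 16 were among the 20 highest per kilobase, and 71 of the 100 were shared. Merged exons overstate the length of genes with many annotated isoforms.

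Of 48 symbols listed as fetal or neonatal liver genes, 44 matched a row, 24 had a mean of at least 100, 12 lay between 10 and 100, and 8 were under 10. The list held 2.33 ± 0.198% of counts, but nearly all of this was Ahsg, a gene expressed throughout life, and without it the share was 0.193 ± 0.0457%. H19, an imprinted long noncoding RNA of the growing liver, was the next member with 13441 ± 6497 normalized counts. Its values were 3808 in WT 4, a median of 13217 and 21481 in WT 5. Mir675 is encoded inside H19, so its row (986 ± 463) shares the same reads. The lipase gene Lpl, silenced in adult liver, stood at 10988 ± 2259. The binding proteins Igfbp2 and Igfbp1 were at 8955 ± 2006 and 5662 ± 4914.

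The markers named most often for the fetal hepatocyte were low and not absent. Afp, the fetal counterpart of albumin, measured 134 ± 21.4 normalized counts, between 114 in WT 2 and 165 in WT 1. On the scale per kilobase its level was 3.89 against the 119972 of Alb. Igf2, the fetal growth factor, lay at 98.1 in WT 4, 146 in WT 2 and 269 to 437 in the others. Gpc3, a cell surface proteoglycan, was at 611 ± 104 and the RNA-binding protein gene Igf2bp3 at 701 ± 122. Acsl4 (2400 ± 406), Abcd2 (2772 ± 379), Grb10 (804 ± 54.4), Mest (477 ± 128), Scd2 (449 ± 65.6), Tff3 (332 ± 109), Cdkn1c (193 ± 17.7), Plagl1 (173 ± 45.6), Peg3 (152 ± 41.9), Mfap4 (114 ± 29.6) and Spink3 (103 ± 28.2) were also above 100, as was the perinatal cytochrome Cyp3a16, at 131 in WT 4 and 5023 in WT 5. Among the repressors of the fetal programme, Zhx2, known to silence Afp and H19, measured 414 ± 44.9 and Zbtb20 39.8 ± 6.75.

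Genes of the earliest fetal stages were at or near 0. Lin28b was at 0 in 5 livers and at 0.975 in WT 5, and the embryonic globin Hbb-y was at 0 in all 6. Igf2bp1, Igf2os, Hmga2, Mirg, Sult3a1 and Cdh17 had means under 10. Between 10 and 100 were Cpe, Bex4, Rian, Epcam, Igf2bp2, Ndn, Ly6d, Sox4, Igdcc4, Bex1, Tspan8 and Dlk1. Dlk1, an imprinted marker of hepatoblasts that fat and cartilage precursors express too, was at 99.1 in WT 6 and at most 3.89 in the other 5 livers. The imprinted RNAs Meg3 and Rian of the same locus were also highest there, with 444 and 165 in WT 6 against at most 173 and 66.3 elsewhere, and Sox9 had 161 against at most 106. WT 6 also held transcripts of fat and cartilage, given below, whose part in these values was not tested.

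**Figure D2:**
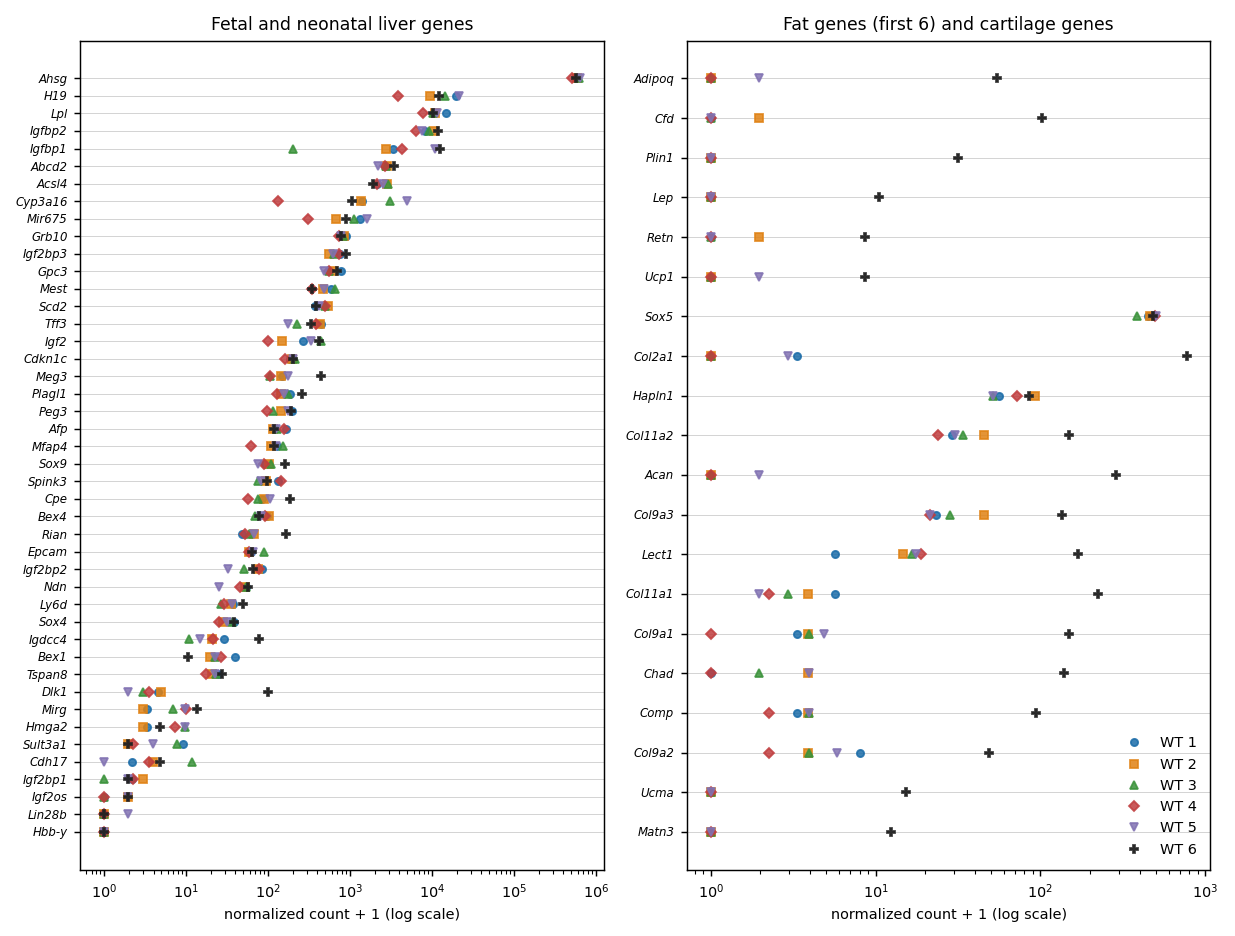
Normalized count + 1 (log scale) of each gene, 1 point per liver: left, the 44 measured fetal and neonatal genes by mean; right, 6 genes of fat cells and 14 of cartilage. Ahsg and H19 lead on the left and Lin28b and Hbb-y are at or near 0; on the right WT 6 stands apart for most genes, such as Col2a1 and Adipoq, but not for Sox5 or Hapln1.

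Most genes differed little between the livers. Across the 10401 genes whose mean reached 100, the median SD was 0.156, with 0.0761 at the 10th percentile and 0.347 at the 90th. An SD of at least 1 was found for 59 genes (0.567%), and 2236 genes (21.5%) were under 0.1. The spread that counting alone would give had a median of 0.060, and the measured SD was 2.54 times it at the median. For 413 genes (3.97%) the measured SD was below the counting SD. The genes nearest the limit were Spic, Nuak1 and Bbs4 inside it, with means of 100.02 to 100.06, and Snx32, Ntn4 and Tmc8 outside it, with 99.98 to 99.99. WT 6 contributed 24.9% of the summed squared deviations, WT 4 21.5% and WT 2, the liver nearest to the mean, 10.5%. Of the 15 pairs of livers, WT 2 and WT 3 were closest, with an SD of their log2 differences of 0.253, and WT 4 and WT 6 were farthest apart with 0.427. Without WT 6 the median SD was 0.144 and 49 genes were at 1 or more. The livers were not highest or lowest equally often. Over all 10401 genes, WT 4 was highest for 22.5%, WT 6 for 20.8% and the others for 12.8 to 15.5%. WT 6 was lowest for 22.7% and the others for 14.1 to 17.3%. Counts of list members highest or lowest in a liver, given below, stand beside these shares.

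**Figure D3:**
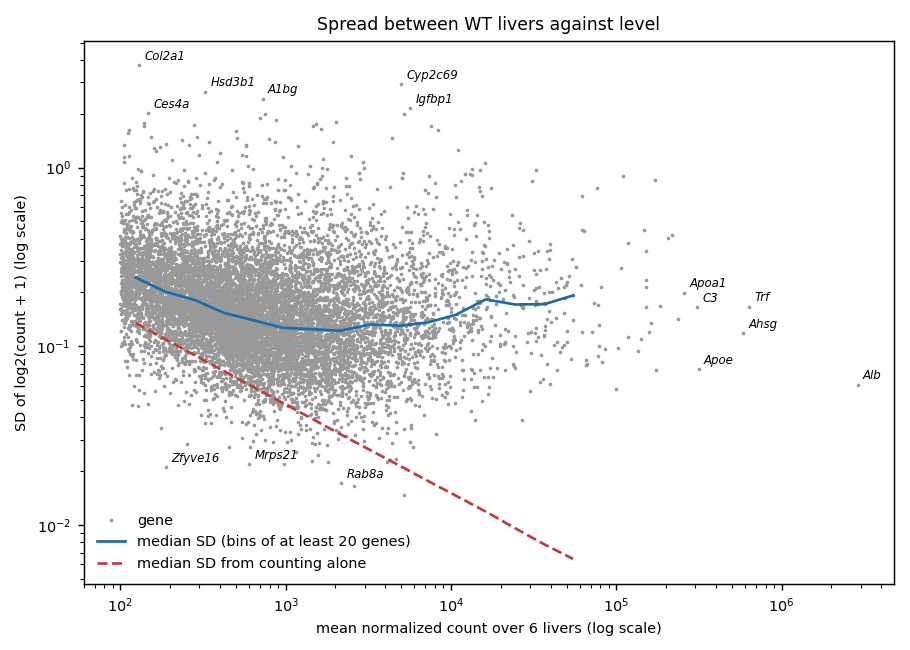
SD of log2(count + 1) over 6 livers against mean normalized count (both log scales) for 10401 genes, with the median SD in bins of level (solid) and the median SD that counting alone gives (dashed). Cyp2c69 and Igfbp1 stand far above genes of their level, and genes such as Rab8a and Mrps21 lie under the dashed line.

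Many of the genes that varied most shared an order of livers. Of the 20 with the highest SD, 12 were higher in each of WT 1, WT 3 and WT 5 than in any of WT 2, WT 4 and WT 6. Of the same 20, 13 were lowest in WT 4. The split was read from these 20 genes and was not counted over all genes, so no share stands beside it. First among the 12 was Cyp2c69, a female-biased cytochrome P450 (chromosome 19, 39842814 to 39886799, minus strand, GRCm38). It measured 11133, 9021 and 7058 normalized counts in WT 5, WT 3 and WT 1, 1758 in WT 2, 789 in WT 6 and 54.8 in WT 4. The highest and lowest liver differed 203-fold, and the SD of 2.92 was 1.67 without WT 4. Leaving out WT 4 likewise took the SD of Cyp2c40 from 1.99 to 1.22, of Cyp3a44 from 2.01 to 1.19, of Cyp3a16 from 1.81 to 0.944 and of Ces3b from 1.64 to 0.979. The same ordering held for its relative Cyp2c40 (289 in WT 4 to 10024 in WT 1), the perinatal and female cytochromes Cyp3a44 (38.2 to 1533) and Cyp3a16 (131 to 5023), the steroid dehydrogenase Hsd3b1 (6.37 to 892) and the carboxylesterases Ces3b (153 to 3524) and Ces4a (7.65 to 363). A1bg, which encodes a plasma glycoprotein higher in females, was at 1860, 673 and 1627 in WT 1, WT 3 and WT 5 and at 57.2 to 71.9 in the other 3. Serpina1e, a male-biased antitrypsin copy, took part too, with 21422 in WT 1 and 726 in WT 4. Near-identical copies exist for several of these cytochromes, esterases and serpins, so their individual levels are uncertain.

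**Figure D4:**
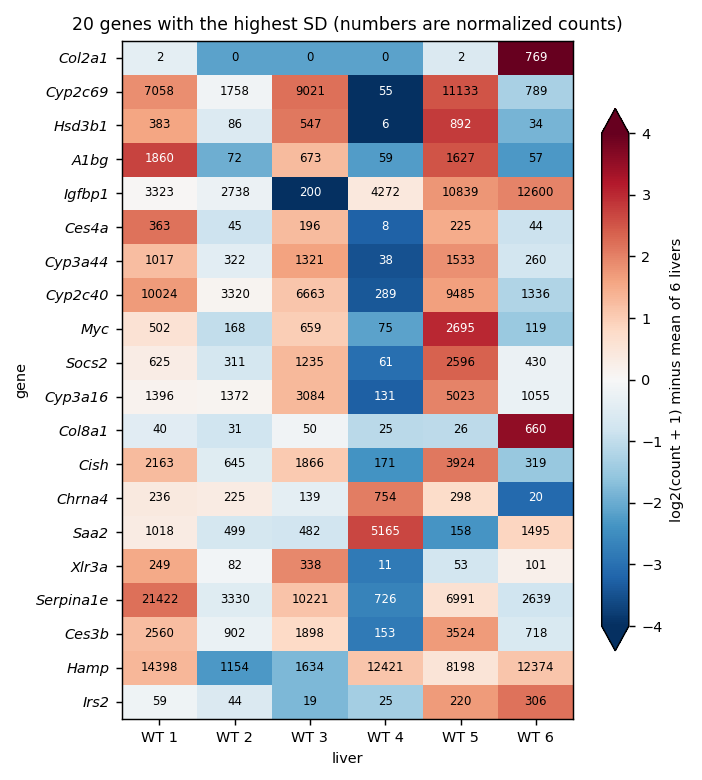
The 20 genes with the highest SD among genes with a mean of at least 100: colour gives log2(count + 1) minus the mean of 6 livers and the printed number the normalized count. WT 4 is lowest for 13 of the genes, such as Cyp2c69 and Socs2, while Col2a1 and Col8a1 are high in WT 6 alone.

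Targets of growth hormone signalling were among these 12 genes. Socs2 and Cish encode feedback inhibitors that Stat5b induces. Both, and Myc, are members of the 12 from which the split was read, so they are no further group that shares it. Socs2 measured 2596 in WT 5, 1235 in WT 3, 625 in WT 1, 430 in WT 6, 311 in WT 2 and 61.2 in WT 4, with an SD of 1.84 that was 1.23 without WT 4. Cish ran from 171 in WT 4 to 3924 in WT 5. Igf1, the growth factor made by the liver, was 6159 in WT 4, 12283 in WT 2 and 15365 to 26646 in the others, and its plasma partner Igfals 902 to 3799 with the same lowest and highest liver. The signalling machinery varied less: the receptor Ghr had an SD of 0.132, Jak2 of 0.146 and Stat5b of 0.205. Bcl6, a repressor that opposes Stat5b, had another order, with 134 in WT 3 and 1258 in WT 6. Over the 16 genes of the growth hormone list with a mean of at least 100 the median SD was 0.518, against 0.156 over all genes, and 10 were in the most variable 10% of genes. WT 4 was lowest for 10 of the 16, with a mean log2 difference from the average liver of −0.89, and WT 5 was highest for 8 with 0.61. For the 22 female-biased genes the median SD was 0.699, and 18 were in the most variable 10%. WT 4 was lowest for 11 of the 22 and WT 1 for 6, while WT 6 was highest for 9 and WT 5 for 7. The list as a whole thus did not share the order. Cyp2b9 (5821 to 10732) and Sult2a1 (24241 to 47572), for example, were lowest in WT 1. Myc, a growth regulator and also among the 12, measured 2695 in WT 5 against at most 659 elsewhere. WT 4 was the shallowest library and also had the lowest share of erythroid (0.0663%) and of stellate cell and fibroblast markers (0.122%); the part of these in its values was not tested.

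The Cish promoter is shown as that of a growth hormone list gene whose window holds TTCNNNGAA, the form of sequence that Stat factors bind. Capitals mark this motif, searched on both strands (chr9:107296409-107296708, plus strand, GRCm38.p6). A match in these letters shows no binding.
Cish: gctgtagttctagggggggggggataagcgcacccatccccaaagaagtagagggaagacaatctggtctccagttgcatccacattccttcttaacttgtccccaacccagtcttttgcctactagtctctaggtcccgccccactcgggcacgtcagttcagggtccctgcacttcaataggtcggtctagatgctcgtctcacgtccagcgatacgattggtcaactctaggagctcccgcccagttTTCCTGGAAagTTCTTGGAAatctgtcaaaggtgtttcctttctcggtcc
The motif was found 2 times in this window, side by side just after the start. It was added to the search after results had been seen. Of the 17 growth hormone list genes with a window, 4 held it (23.5%), namely Cish, Igfals, Bcl6 and Socs3, and 8.47% of all windows do.

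The acute phase genes, which the liver induces during inflammation, had another order. Saa2, a serum amyloid A, measured 5165 in WT 4, 1495 in WT 6, 1018 in WT 1 and 158 to 499 in WT 2, WT 3 and WT 5. Its neighbour Saa1 ranged from 721 in WT 5 to 12702 in WT 4, the orosomucoid Orm2 from 110 to 1325 and the siderophore binder Lcn2 from 469 to 3009, with the same lowest and highest liver. Over the 19 members with a mean of at least 100 the median SD was 0.448 and 14 were in the most variable 10%. WT 4 was highest for 9 and WT 6 for 7, and WT 5 was lowest for 8. The list held 4.38% of counts in WT 6, 3.87% in WT 4, 3.63% in WT 1, 2.79% in WT 5, 2.77% in WT 3 and 2.28% in WT 2. The fibrinogen chains, highest in WT 6, were next highest in WT 1 and not in WT 4, with Fga at 267087 in WT 1 and 244186 in WT 4, Fgb at 238920 and 226764, and Fgg at 176505 and 165413. Hp, which encodes the haemoglobin binder haptoglobin, was 165361 in WT 6 and 147353 in WT 4 against 90519 to 111637 elsewhere. Crp did not share the order, with its lowest value, 8546, in WT 4, and Saa3, a form made outside hepatocytes, had an SD of only 0.288. Hamp, the iron hormone hepcidin, was 8198 to 14398 in WT 1, WT 4, WT 5 and WT 6 but 1154 and 1634 in WT 2 and WT 3. Its near copy Hamp2 was highest in WT 4 with 31412 and lowest in WT 3 with 4836.

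Saa1 and Saa2 lie beside each other on chromosome 7 on opposite strands, and their windows are printed because they are nearly the same sequence. Capitals mark the bases that differ in a global alignment (chr7:46742931-46743230, minus strand, and chr7:46751583-46751882, plus strand, GRCm38.p6).
Saa1: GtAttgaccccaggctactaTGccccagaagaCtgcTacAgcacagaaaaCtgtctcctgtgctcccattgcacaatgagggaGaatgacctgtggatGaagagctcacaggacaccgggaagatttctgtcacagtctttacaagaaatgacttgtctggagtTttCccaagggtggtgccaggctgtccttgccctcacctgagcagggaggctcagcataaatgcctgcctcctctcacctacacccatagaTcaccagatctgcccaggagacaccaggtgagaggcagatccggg
Saa2: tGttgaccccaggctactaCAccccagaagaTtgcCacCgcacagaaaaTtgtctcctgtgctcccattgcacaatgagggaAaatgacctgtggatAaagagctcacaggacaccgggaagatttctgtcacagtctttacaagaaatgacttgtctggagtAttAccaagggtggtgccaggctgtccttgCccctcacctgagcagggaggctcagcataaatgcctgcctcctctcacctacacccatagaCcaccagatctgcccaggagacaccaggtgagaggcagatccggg
The 2 windows were identical at 287 of 301 alignment columns (95.35%). The windows lie mostly before the transcripts and do not show how alike these are. As background, Saa1 and Saa2 are close paralogs, so the split of reads between them is uncertain. The Fgb window stands for the members that hold TTCNNNGAA, again in capitals (chr3:83049814-83050113, minus strand, GRCm38.p6).
Fgb: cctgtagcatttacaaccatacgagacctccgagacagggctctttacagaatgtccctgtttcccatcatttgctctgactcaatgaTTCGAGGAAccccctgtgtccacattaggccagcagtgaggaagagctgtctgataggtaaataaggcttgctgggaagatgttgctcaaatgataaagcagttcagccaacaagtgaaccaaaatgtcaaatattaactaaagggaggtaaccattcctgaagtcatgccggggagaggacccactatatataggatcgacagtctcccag
Of the 17 acute phase genes with a window, 7 held the motif (41.2%): Fga, Fgb, Itih4, Hamp2, Apcs, Hamp and Steap4. Neither Saa window did. Among all windows 8.47% held it. As said for Cish, this motif was added to the search after results had been seen, and a match shows no binding.

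Genes under insulin, glucagon and glucocorticoid control varied widely, and the liver with the lowest value differed from gene to gene. Of the 19 list members with a mean of at least 100, 17 were in the most variable 10%. WT 3 was lowest for 7, and WT 5 and WT 6 for 6 each. The median SD was 0.774, which was 0.628 without WT 3 and 0.520 without WT 6. Igfbp1, a binding protein that fasting induces (chromosome 11, 7197782 to 7202546, plus strand, GRCm38), measured 200 in WT 3, 2738 to 4272 in WT 1, WT 2 and WT 4, and 10839 and 12600 in WT 5 and WT 6. Its SD of 2.15 was 1.01 without WT 3. WT 3 was also lowest for the glucose-producing enzymes Pck1 (25905 against 60204 to 124721) and G6pc (3236 against 12081 to 18499), and for Tat, which starts the breakdown of tyrosine. The insulin receptor substrate Irs2 was 18.5 in WT 3, 25.5 to 58.8 in WT 1, WT 2 and WT 4, and 220 and 306 in WT 5 and WT 6, the order of Igfbp1 at both ends. Irs2 passed the limit on the mean only through WT 5 and WT 6, since its mean was 90.5 without WT 5 and 73.4 without WT 6. Cdkn1a, a cell cycle inhibitor on the list, went from 80.1 in WT 6 to 1099 in WT 1, and Lpin1 was 3148 in WT 6 against 16205 to 21771. Gm6484, the row of the insulin-induced hormone Angptl8, was 5267 in WT 3 and 936 and 955 in WT 5 and WT 6, opposite to Igfbp1 at both ends. Between these, WT 2, WT 1 and WT 4 rose in the same order as for Igfbp1, with 2782, 3181 and 4376.

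Fat synthesis separated WT 6 from WT 4. Scd1, the desaturase that makes monounsaturated fat, measured 33536 in WT 6, 80015 to 107600 in WT 2, WT 3 and WT 5, 172457 in WT 1 and 180138 in WT 4. Fasn, the fatty acid synthase, was 10195 in WT 6 and 62465 in WT 4, Acly, which supplies its substrate, 4871 and 24203, and Thrsp, a lipogenic regulator, 7730 and 52883. Of the 21 genes, 18 were lowest in WT 6 and 16 highest in WT 4, and 15 were in the most variable 10%. Their summed share was 0.493% in WT 6 and 1.71% in WT 4. The median SD was 0.524, and 0.357 without WT 6. Pnpla3, a lipase-family gene induced with fat synthesis, had the highest SD of the list at 1.16. Of 30 fatty acid oxidation genes, 20 were highest in WT 6, with a median SD of 0.150 that was 0.0937 without WT 6. Acot3, a thioesterase of peroxisomes, was 934 in WT 6 and 90.5 in WT 4.

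Cell division genes were highest in WT 1 and lowest in WT 6. Mki67, the proliferation marker, measured 1294 in WT 1, 431 in WT 6 and 608 to 762 in the others, and Top2a, the topoisomerase of dividing cells, 931, 328 and 486 to 610. Of 39 genes with a mean of at least 100, 25 were highest in WT 1, 12 in WT 4 and 28 lowest in WT 6, and 31 were in the most variable 10%. The members highest in WT 4 included replication licensing genes such as Mcm6 (1691 against 679 to 1332) and Mcm5 (961 against 276 to 659). The median SD was 0.520, and 0.345 without WT 1. Plk1, a mitotic kinase, had the highest SD of the list at 0.752. Ccnd1, which promotes entry into the cycle, was highest in WT 3 with 5873. The Top2a window is shown with CCAAT on either strand in capitals, a motif known from promoters of mitotic genes (chr11:99024140-99024439, minus strand, GRCm38.p6).
Top2a: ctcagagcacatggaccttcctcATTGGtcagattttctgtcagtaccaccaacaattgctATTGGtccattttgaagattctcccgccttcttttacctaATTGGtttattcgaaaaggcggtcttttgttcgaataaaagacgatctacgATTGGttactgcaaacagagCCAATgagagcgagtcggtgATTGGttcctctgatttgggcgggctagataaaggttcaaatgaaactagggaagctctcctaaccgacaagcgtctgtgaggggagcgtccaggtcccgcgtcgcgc
It held the motif 6 times. Of the 32 cell cycle genes with a window, 25 held CCAAT (78.1%), against 37.9% of all windows.

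Clock genes differed although the mice were killed around the same hour. Dbp, an output gene of the clock, measured 510 and 562 in WT 2 and WT 1, 1304 to 1686 in WT 3, WT 4 and WT 5, and 2486 in WT 6. Arntl, whose level runs opposite to Dbp over the day, was 176 in WT 1 and 34.3 in WT 6. Per3 was 487 in WT 1 and 1338 to 2475 in the others. Of 18 clock genes, 13 were in the most variable 10% with a median SD of 0.453. WT 1 was lowest for 8.

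**Figure D5:**
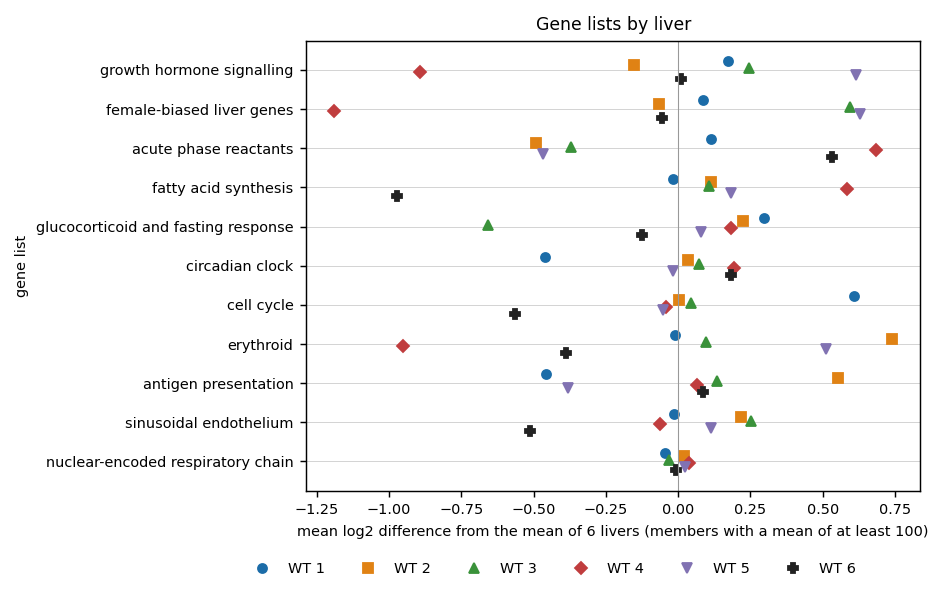
For 11 gene lists, the mean over members with a mean of at least 100 of the log2 difference from the average of 6 livers, 1 symbol per liver. WT 4 lies far to the left for growth hormone signalling and female-biased genes, WT 6 for fatty acid synthesis and cell cycle, and the 6 livers nearly coincide for the respiratory chain.

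Other cells of the liver varied as groups too. Markers of blood, immune and vessel cells are read here in a bulk sample, in which fewer cells of a type and less RNA per cell cannot be told apart. The erythroid list held 0.306% of counts in WT 2, 0.230% in WT 5 and 0.0663% in WT 4. Adult beta globin Hbb-bs was 23480 in WT 2 and 4204 in WT 4. Its row equals that of Hbb-b1, as Hba-a1 equals Hba-a2 and Hbb-bt equals Hbb-b2, so such rows cannot be told apart. With each of these equal rows counted 1 time, the list held 0.166% in WT 2, 0.126% in WT 5 and 0.0417% in WT 4. The median SD was 0.876 over the 12 rows with a mean of at least 100 and 0.599 over the 9 that differ, and Slc4a1, the red cell anion exchanger, had the highest SD, 1.24. Macrophage markers were highest in WT 2 for 14 of 18, such as Clec4f of Kupffer cells with 9121 against 5855 to 7700, and antigen presentation genes for 13 of 16 rows, of which 1 equals another, such as Cd74 with 4392 against 1011 to 2926. Markers of sinusoidal endothelium were lowest in WT 6 for 17 of 18, and their median SD of 0.268 was 0.161 without it. Lyve1 was 564 in WT 6 against 812 to 1346. The bile duct list held 0.0331 ± 0.00385% of counts, the stellate cell and fibroblast list 0.153 ± 0.0162% and the neutrophil and myeloid progenitor list 0.0123 ± 0.00361%. Lcn2, named above among the acute phase genes, is on the neutrophil list and alone held 0.00604% of counts.

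Several transcripts of fat and cartilage were high in WT 6 and at or near 0 in the other livers. Col2a1, the main collagen of cartilage (chromosome 15, 97975602 to 98004695, minus strand, GRCm38), had the highest SD of all 10401 genes, 3.73. It measured 769 in WT 6, 2.35 in WT 1, 1.95 in WT 5 and 0 in the other 3. Without WT 6 its SD was 0.908 and its mean 0.86, far under the limit of 100. Col8a1, a collagen of vessels and other tissues, was 660 in WT 6 against 25.5 to 49.8, and its SD of 1.78 was 0.400 without WT 6, where its mean of 34.5 was also under the limit. Acan, the cartilage proteoglycan, was 285 in WT 6 and at most 0.975 elsewhere, and Col11a1 was 223 against at most 4.70. Of 14 measured cartilage genes, a list chosen after these values were seen, Sox5 and Hapln1 were not highest in WT 6. The fat cell hormone Adipoq was 53.4, Cfd 101 and Plin1 30.5 in WT 6, and each was at 0 or under 1 in the other 5. All 7 members of the adipocyte list with a mean under 100 were highest in WT 6. Of the 7 with a mean of at least 100, which the liver itself expresses, 1 was highest and 3 were lowest there, such as Plin4 with 119 against 356 to 1439. The whole list of 14 genes held its lowest share in WT 6, 0.0795%, and its highest in WT 4, 0.118%. Skeletal muscle markers held 0.000136% of counts in WT 6, the highest of the livers, against 7.63e-05 to 0.000124% in the others. The pancreas list held 0.00155% in WT 6 and 0.00125 to 0.00209% in the others. The part of the fat and cartilage transcripts in the other values of WT 6 was not tested.

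The genes that varied least had diverse known roles. Of the 100, 94 were on none of the lists, but the lists hold only 1169 of the 17714 genes measured, so most genes are on none. The share on no list was not counted among the 10401 genes ranked, so the 94 is not read as high or low. Rab8a, a small GTPase of vesicle traffic (chromosome 8, 72161200 to 72183904, plus strand, GRCm38), had an SD of 0.017. Its 6 values lay between 2123 in WT 2 and 2192 in WT 5 with a median of 2152. Rab14, of the same family, had an SD of 0.0287. Rhoa, a GTPase of the cytoskeleton, lay between 4030 and 4192, and Pfn1, which binds actin, between 4195 and 4397. Also among the 20 were Atp5j and Cox6b1, subunits of ATP synthase and of cytochrome oxidase, and the mitochondrial ribosome gene Mrps21. Others among the least variable were Matr3, Zfyve16, Anapc1, Lmbrd1, Clcn3, Drg1, Thoc7, Mast2, Pigs, Syap1, Gng12 and Fert2, with SDs of 0.0165 to 0.0284. Several of these SDs rested on 1 liver. That of Matr3 was 0.0165, and 0.0101 without WT 2, and that of Syap1 0.0279, and 0.0152 without WT 2. Pfn1 had 0.023, and 0.0144 without WT 1, and Atp5j 0.0235, and 0.0152 without WT 1. Thoc7 went from 0.0255 to 0.0167 without WT 4, Lmbrd1 from 0.0223 to 0.0133 without WT 5 and Mrps21 from 0.0218 to 0.0108 without WT 6. Of the 20 least variable genes 16, and of the 100 least variable 60, had an SD below that of counting alone, so their order among themselves is not read here. With libraries set to equal totals, 49 of the 100 least variable genes stayed among the lowest 100.

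The nuclear-encoded respiratory chain had the lowest median SD of the 61 lists. Over its 30 genes this was 0.068, 18 were in the least variable 10% and none in the most variable. Atp5b, the catalytic subunit of ATP synthase, was 37531 to 42014. Of all 10401 genes, 130 (1.25%) were on a secreted list and 334 (3.21%) on a metabolic list. The 100 most variable held 12 secreted and 23 metabolic genes, above these shares. The 100 least variable held 0 and 5, near these shares. Among 31 genes in common use as references, Hprt (SD 0.048), Emc7 (0.060) and Ywhaz (0.064) were steady and Actb (0.116) was moderate. Gapdh had the highest SD, 0.556, with 179 in WT 6 and 543 in WT 1. Gapdh and Ppia (198 ± 20.1) were far below the level of Eef1a1 (81611 ± 4542); both have many near-identical pseudogenes, so their counts are uncertain. Of 76 cytosolic ribosomal protein genes with a mean of at least 100, 53 were lowest in WT 4 and 35 highest in WT 1, with a median SD of 0.122.

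Further genes among the most variable 20 fitted none of these groups. Chrna4, a nicotinic receptor subunit, was 754 in WT 4, 139 to 298 in WT 1, WT 2, WT 3 and WT 5, and 20.02 in WT 6, and its SD of 1.72 was 0.897 without WT 6. Xlr3a, a gene of an X-linked family of near copies, was 338 and 249 in WT 3 and WT 1 and 11.5 in WT 4, with an SD of 1.71 that was 1.12 without WT 4 and a mean that was 99.2 without WT 3. Of the 100 most variable genes, 36 were on none of the lists, which hold 1169 of the 17714 genes measured. Here too the share on no list among the 10401 genes ranked was not counted, so the 36 is not read as high or low. The promoter windows of the 100 most variable, 100 least variable and 100 most abundant genes were not compared, since only 73, 79 and 71 of each had a window, below the 80% needed for such a check.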

How the data were processed

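Total RNA of frozen liver was turned into libraries by the TruSeq Standard Total RNA method, per the labels' protocols. Tools listed in the submitters' processing notes are STAR, featureCounts, FastQC and DESeq2, and the build is mm10. Versions, annotation, strand setting and filters are not given in any source used here. The deposited signal is a normalized count per gene, which the authors made by dividing reads by 1 factor per library. All WT values were whole multiples of 1 read within 0.001 reads, so reads were recovered. The SD calculation was tested on simulated data.

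From these values shares of each library's total, per-kilobase levels and the SD of log2(normalized count + 1) were computed with Python 3.11.15, pandas 2.3.3 and numpy 2.4.6. The counting SD is that of Poisson reads at each gene's level. Exon lengths come from GENCODE M21 on GRCm38, matched for 17507 genes that hold 99.7% of counts, and promoter windows from RefSeq on GRCm38.p6, the first start listed per gene. Rows equal to an earlier row in every liver numbered 12 among genes with a mean of at least 100. Genes named are the 20 of highest mean, the 20 of highest and 20 of lowest SD at a mean of at least 100 (leaving out Gm and Rik symbols, pseudogenes and copies), members of the 61 lists by level or SD, and all fetal list members. Others, such as those on the cartilage list, Gm5424, Gm6484, Zhx2, Zbtb20 and further list members that show where an order of livers held or did not, were chosen after their values were seen. Some genes that the rule picks are not reported here. The members, lists and genes were chosen with earlier results of these data known. Alternatives were other lengths, filters, pseudocounts, scalings (edgeR 4.0.16, DESeq2 1.42.0) and spread measures, and leaving out each liver.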

Additional observations from a re-analysis of the deposited data

Results flagged for a closer look

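A value was picked out where 1 of the 6 livers lay so far from the rest that its gap exceeded the 95% limit of Dixon's test for 6 samples. Of 93 genes examined 12 had a liver apart, and of 64 lists and sums of lists 4. Chance gives about 1 such case in 20, but the genes include the 20 chosen for a high SD over the same 6 livers, and the cartilage list was chosen after seeing the data, so the counts are not set against chance.

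In WT 6, Col2a1 was at 769 normalized counts against at most 2.35 in the others, Col8a1 at 660 against at most 49.8, and Dlk1 at 99.1 against at most 3.89. Meg3 was at 444 in WT 6 against at most 173, Rian at 165 against at most 66.3, Igdcc4 at 76.3 against at most 28.2, and Sox9 at 161 against at most 106. The cartilage list, chosen after seeing the data, held 0.0101% of counts in WT 6 and at most 0.0025% in the others.

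In WT 4, Apoa1 was at 193085 against at least 258879, and the apolipoprotein list held 3.69% of counts against a median of 4.09% in the others. Saa2 was at 5165 in WT 4 against at most 1495. The stellate cell and fibroblast list held 0.122% in WT 4 and 0.152 to 0.167% in the others.

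In WT 5, Myc was at 2695 against at most 659 and the imprinted gene Ndn at 24.4 against at least 44.6. Epcam, an epithelial marker, was at 87.8 in WT 3 against at most 64.4. Conjugation enzymes held 1.14% of counts in WT 1 and 1.36 to 1.46% in the other livers.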

How the results depend on the processing

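Per kilobase of merged exons, the 10 most abundant genes held 27.0%, the 100 most abundant 52.8%, 78 genes held 50%, and the secreted, metabolic and fetal lists held 42.2, 17.6 and 2.89%. Per kilobase of the longest RefSeq-linked transcript, added after seeing the data, the same values were 24.5%, 48.7%, 112 genes, 38.6, 17.3 and 3.18%. Counting equal rows 1 time, protein-coding genes only and a mean of at least 10 moved these 6 values by less than the SD over livers, or the number of genes by less than 1.5 times. The median SD was 0.166, 0.188 and 0.132 at a mean of at least 50, 10 and 500, 0.131 by median absolute deviation and 0.138 with counting variance subtracted. Genes with an SD of at least 1 numbered 168 at a mean of at least 10 and 34 at 500. Genes under 0.1 numbered 3666 by median absolute deviation. With each liver left out in turn, the median SD ran from 0.144 (without WT 6) to 0.158, genes at 1 or more from 49 to 73, and genes under 0.1 from 2253 to 2762; the shares of the top 10 and top 100 ran from 21.1 to 21.6% and 42.8 to 43.1%.

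Of the 100 most variable genes, 100 were shared under equal totals, equal upper quartiles and edgeR or DESeq2 factors, 93 by edgeR dispersion, 72 by median absolute deviation, and 70 without WT 4. At a mean of at least 50, 500 and 10, where genes enter or leave the ranking, 82, 61 and 41 were shared. Of the 100 least variable, 41 were shared by edgeR dispersion, 25 by median absolute deviation, 13 with counting variance subtracted, and 45 to 63 with a liver left out. At this depth 60 of them had an SD below that of counting alone. Counting equal rows 1 time for the median SD of the erythroid list was added after seeing the data. No paired analysis was possible because only 1 group is described, so no groups were compared.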

Other observations

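Some groups described by neither level nor spread above are given as values. Endoplasmic reticulum chaperones, which fold secreted proteins, held 0.947 ± 0.0889% of counts, with the highest share in WT 1 (1.05%) and the lowest in WT 2 (0.826%). Heat shock proteins held 0.275% in WT 6 and 0.398% in WT 4, and WT 6 was lowest for 9 of 14 genes. Interferon response genes were lowest in WT 3 for 14 of 29 and highest in WT 4 for 13. Cyp7a1, the rate-limiting enzyme of bile acid synthesis, measured 3198 and 4019 normalized counts in WT 1 and WT 4, 7023 in WT 5 and 10605 to 11862 in WT 2, WT 3 and WT 6. The immediate early gene Fos was at 382 in WT 6 and 37.6 to 76.5 in the others. Rn45s, the precursor of ribosomal RNA, was 12332 in WT 3 and 19824 in WT 5. Among genes below the limit on the mean, Mettl7a3 had the highest SD, 3.28, with 71.7 and 91.3 in WT 1 and WT 2 and 0 in the other 4 livers.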
